A study of Mus musculus with 2 samples.

Results

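The genes described here build and regulate MHC class I, the surface molecule that shows peptides from inside a cell to CD8+ T cells. They were chosen by their symbols as 10 of the 31053 genes counted: H2-K1, H2-D1, B2m, Tap1, Tap2, Tapbp, Psmb8, Psmb9, Psmb10 and Nlrc5, and all 10 were found in both libraries. Cells came from the mediastinal lymph nodes, which drain the lung, of WT C57/B6J mice with asthma induced by ovalbumin (OVA). One droplet library was made from mice that received OVA without butyrate, and the other from mice that received OVA with butyrate (labelled C4), a short-chain fatty acid produced by gut bacteria. Both groups received OVA with alum into the abdomen on days 0 and 7 and OVA into the nose from day 14 to day 16, and tissue was taken on day 17. Mice in the study were 5 to 13 weeks old. The ages of the sequenced mice and the route by which they took butyrate (drinking water or gavage) are not given in the sources used here. The cells of 4 mice were pooled in each library, so neither condition was replicated and differences could not be tested. Butyrate cannot be told apart from any other difference between the 2 libraries. All intervals are at 95% and hold the counting error alone, without the spread from mouse to mouse.

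MHC class I consists of a heavy chain, here H2-K1 or H2-D1, held together with β2-microglobulin, the product of B2m, and a peptide. Peptides are cut by the proteasome, whose catalytic subunits Psmb5, Psmb6 and Psmb7 are replaced in the immunoproteasome by Psmb8, Psmb9 and Psmb10. They are then pumped into the endoplasmic reticulum by the transporter Tap1 and Tap2, to which tapasin (Tapbp) ties the empty class I molecule. Nlrc5 is the transactivator that switches these genes on together, and interferons raise most of them.

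In GRCm38, 7 of the 10 genes lay on chromosome 17, in the mouse MHC, among them H2-K1 at chr17:33996017-34000347 on the minus strand and H2-D1 at chr17:35262730-35267499 on the plus strand. Psmb9 (chr17:34181987-34187764, minus strand) and Tap1 (chr17:34187553-34197225, plus strand) overlap head to head, followed on the plus strand by Psmb8 (chr17:34197721-34201454) and Tap2 (chr17:34203527-34216321). Tapbp (chr17:33915899-33929292, plus strand) overlaps Zbtb22 on the same strand. B2m lay on chromosome 2, at chr2:122147686-122153083, and Psmb10 and Nlrc5 on chromosome 8. Near-identical heavy chain genes could share reads, but of 1323 windows of 90 bases in the last 500 bases of the H2-K1 transcripts only 2 occurred in another gene, and none did for H2-D1.

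Sequence before the start is shown for 3 of the 10 genes. RefSeq promoter windows (GRCm38.p6, 250 bases before to 50 after the start) were matched for 8 genes, all but Tap2 and Nlrc5. H2-K1 had 2 windows, of which the first was used. The windows of H2-D1, Tapbp and Psmb8 lie inside the gene spans given above, because their RefSeq starts lie downstream of those spans' first bases. Positions counted from the start thus depend on the start used. Both strands were searched for the core bound by interferon regulatory factors (IRF, AANNGAAA), the gamma-activated site (TTCNNNGAA), the Y box (CCAAT) and the κB site of class I promoters (GGGATTCCC), where N is any base. In the windows below, read 5′ to 3′ on the gene's own strand and ending at the base before the start, capitals mark the matches. The H2-K1 stretch is chr17:34000348-34000597 on the minus strand, and the B2m stretch is chr2:122147437-122147686 on the plus strand.
H2-K1: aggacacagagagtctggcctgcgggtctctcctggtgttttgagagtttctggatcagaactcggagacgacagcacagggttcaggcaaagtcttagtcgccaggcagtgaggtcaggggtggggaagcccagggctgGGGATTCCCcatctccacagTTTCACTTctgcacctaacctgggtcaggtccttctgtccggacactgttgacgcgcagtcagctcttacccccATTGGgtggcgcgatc
B2m: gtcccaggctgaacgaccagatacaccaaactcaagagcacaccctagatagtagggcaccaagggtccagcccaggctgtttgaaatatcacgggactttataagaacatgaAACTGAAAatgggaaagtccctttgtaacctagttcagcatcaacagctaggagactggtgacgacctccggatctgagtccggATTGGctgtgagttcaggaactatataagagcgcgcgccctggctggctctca
The IRF core occurred at −90 in H2-K1 and at −137 in B2m, counted in bases from the RefSeq start, and also at −150 in H2-D1. That made 3 of the 8 windows, against 23.9% of 32544 mouse promoter windows. The IRF and κB motifs were chosen after these promoters were read, so their counts beside the shares of all windows are no test of enrichment. The κB site occurred in the heavy chain genes H2-K1 and H2-D1 alone among the 8, against 0.353% of all windows. In both it stood just before the IRF core, and the stretch of 28 bases from one to the other was identical at 27 bases. These stretches are chr17:34000430-34000457 on the minus strand and chr17:35262924-35262951 on the plus strand.
H2-K1: GGGATTCCCcatctccacagTTTCACTT
H2-D1: GGGATTCCCcatctcctcagTTTCACTT
The Y box was found in 6 of the 8 windows, in H2-K1, H2-D1, B2m, Tap1, Tapbp and Psmb9, against 37.4% of all windows, and the gamma-activated site only in that of Psmb8, against 8.33%. The windows of Tap1 and Psmb9 share 275 of their 300 bases, so their Y box is the same. The matches are descriptions of letters and not of binding.

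The lineages were set by counts of unique molecular identifiers (UMIs, each marking 1 captured RNA molecule) of Cd79a, Cd3e, Cd4, Cd8a and Lyz2. The library without butyrate held 9681 cells and 59176459 UMIs and the one with butyrate 8932 cells and 58381292 UMIs. Of these, 8774 and 8013 cells were kept, with medians of 5075 and 5649 UMIs, and 25 cell barcodes occurred in both. There were 4014 and 3754 B lineage cells, 1044 and 933 CD4+ T cells, 1608 and 1647 CD8+ T cells, 1142 and 898 T cells with no UMI of Cd4 or Cd8a (CD4-CD8- T cells), and 37 and 32 Lyz2+ cells. A further 42 and 30 T cells had UMIs of both Cd4 and Cd8a and were not used. The other 10.1% and 8.97% of cells fell in no lineage. Ms4a1, a B cell marker that the rule did not use, stood at 933 and 1018 CPM in the B lineage and at 0 to 7.26 CPM in the others, where CPM scales the UMIs of a lineage to a total of 1000000. The CD4-CD8- T cells still held 157 and 134 CPM of Cd8b1, against 923 and 964 CPM in CD8+ T cells, so some had Cd8b1 but no Cd8a UMI. The γδ T cell genes Trdc and Tcrg-C1 summed to 129 and 162 CPM there. A Trdc UMI was found in only 8.76% and 9.02% of these cells, and a UMI of the T cell marker Trac in 85.9% and 86.6%. Cd4 was sparsely counted, with 1724 and 1617 UMIs in the 1044 and 933 CD4+ T cells. CD4+ cells whose Cd4 RNA went uncounted may thus be among the CD4-CD8- T cells, a group set by missing UMIs and not a cell type. The Lyz2+ cells held all 6 myeloid markers, but their summed level was 8570 CPM without and 5332 CPM with butyrate. The neutrophil genes S100a8 and S100a9, at 5100 and 8855 CPM, came with at least 2 UMIs from 4 and 2 cells.

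Across these cells, class I presentation RNA was slightly lower in the library with butyrate. In the B lineage and the 3 T cell lineages, 37 of 40 ratios of CPM with over without butyrate were below 1, and for 29 of them the whole counting interval was. The share of all genes with such an interval was not counted, and intervals narrow as UMIs rise. Among the 29 was H2-D1 in CD4-CD8- T cells, with 10868 and 9070 UMIs and a log2 ratio of only −0.05 (−0.09 to −0.0047). The differences were small, with log2 ratios from −0.27 to 0.11. In these 4 lineages 0 of the 10 genes were at least 20% lower and 0 at least 25% higher with butyrate, which are the same fold in either direction. At least 20% lower were 7.17% of the 10295 genes tested in the B lineage, 8.62% in CD4+ T cells, 7.23% in CD8+ T cells and 8.02% in CD4-CD8- T cells, a tested gene having at least 50 UMIs over both libraries. At least 25% higher were 6.66%, 8.04%, 5.98% and 10.6% in the same order. Among genes with at least 500 UMIs, the lower share was 2.42%, 3.48%, 2.78% and 3.41%. The median log2 ratio of the 10 genes was −0.10 in the B lineage, −0.13 in CD4+ T cells, −0.11 in CD8+ T cells and −0.11 in CD4-CD8- T cells, beside medians over all genes tested of 0.05, −0.00034, −0.0038 and 0.02. Below 1 were 8, 9, 10 and 10 of the 10 genes in that order, against 38.5%, 50.03%, 50.8% and 45.5% of all genes tested. Whether these differences exceed the spread between mice was not tested.

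**Figure D1:**
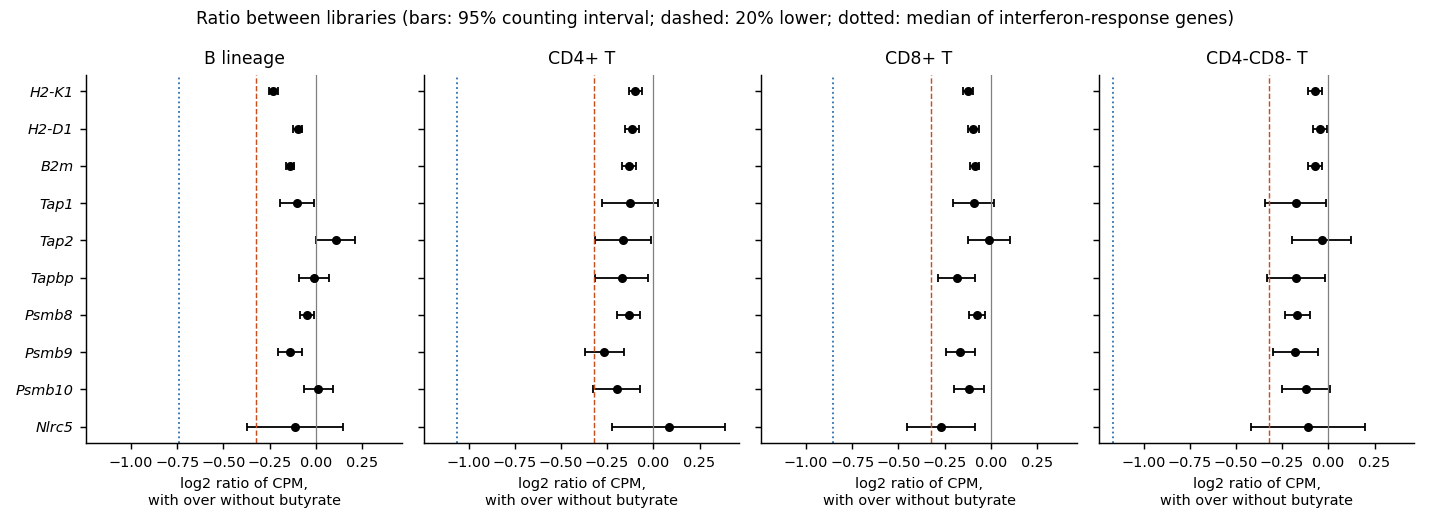
Each panel plots, for 1 lineage, the log2 ratio of CPM with over without butyrate (horizontal axis) of the 10 genes, with 95% counting intervals as bars. Of the 40 points, 37 lie just left of the line at 0, and all lie right of the dashed line at 20% lower, while the dotted line, the median of 18 interferon-response genes, lies much further left, from −0.74 in the B lineage to −1.16 in CD4-CD8- T cells.

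The class I chains H2-K1, H2-D1 and B2m were lower with butyrate in all 4 of these lineages, with intervals below 0 in each. H2-K1, a classical heavy chain, had the lowest ratio of the 10 genes in the B lineage, where it stood at 1368 CPM without and 1167 CPM with butyrate, a log2 ratio of −0.23 (−0.25 to −0.21). In CD4+ T cells it stood at 1935 and 1808 CPM (−0.10, −0.13 to −0.06) and in CD8+ T cells at 1885 and 1731 CPM (−0.12, −0.15 to −0.10). In CD4-CD8- T cells it was at 2112 and 2012 CPM (−0.07, −0.11 to −0.03), and the interval of the B lineage overlapped none of the 3 others. The plasma cell gene Jchain stood at 774 and 252 CPM in the B lineage. Without the 71 and 34 B lineage cells that had at least 2 Jchain UMIs, the ratio of H2-K1 was −0.24. H2-D1, the other heavy chain counted, kept to a narrower range of ratios, from −0.12 in CD4+ T cells (1719 and 1585 CPM) to −0.05 in CD4-CD8- T cells (1793 and 1738 CPM). It had −0.10 in the B lineage (1455 and 1359 CPM) and −0.09 in CD8+ T cells (1537 and 1440 CPM). B2m, the light chain that both heavy chains need, was at 1550 and 1405 CPM in the B lineage (−0.14, −0.16 to −0.12), 1988 and 1816 CPM in CD4+ T cells (−0.13), 2097 and 1974 CPM in CD8+ T cells (−0.09) and 2103 and 1997 CPM in CD4-CD8- T cells (−0.07).

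For the 3 chains, low, middle and high percentiles of the cells were all lower with butyrate. For the other 7 genes the low percentiles went both ways. Summed over the 3 chains, the median B lineage cell had 43.4 UMIs per 10000 UMIs without and 39.2 with butyrate, its 10th percentile 26.2 and 23.2 and its 90th percentile 65.8 and 59.0. Medians were 57.6 and 52.0 in CD4+ T cells, 55.3 and 51.4 in CD8+ T cells, and 58.2 and 56.2 in CD4-CD8- T cells. The 10th, 25th, 75th and 90th percentiles were also lower with butyrate in each of these 4 lineages. For the other 7 genes together the medians were 13.5 and 12.3 in CD4+ T cells, 14.2 and 13.4 in CD8+ T cells and 13.6 and 12.4 in CD4-CD8- T cells. Their 10th percentile was not lower in the B lineage (4.65 and 4.69), in CD4+ T cells (5.77 and 6.64) or in CD8+ T cells (7.75 and 7.83), and was 6.39 and 5.88 in CD4-CD8- T cells. Their 25th percentile was not lower in the B lineage (7.44 and 7.52). It was lower in CD4+ T cells (9.17 and 8.75), CD8+ T cells (10.7 and 10.3) and CD4-CD8- T cells (9.28 and 8.84). Their 90th percentile was lower in each, at 19.5 and 18.6 in the B lineage and 24.3 and 20.9 in CD4+ T cells. It was 23.7 and 20.8 in CD8+ T cells and 24.2 and 21.5 in CD4-CD8- T cells. Cells were not brought to a common depth here. The median cell had 4390 UMIs without and 4603.5 with butyrate in the B lineage and 5297 and 6115 in CD4+ T cells. In CD8+ T cells it had 6783.5 and 7892 UMIs and in CD4-CD8- T cells 4892 and 5552. The part of depth in the spread of these percentiles was not tested.

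**Figure D2:**
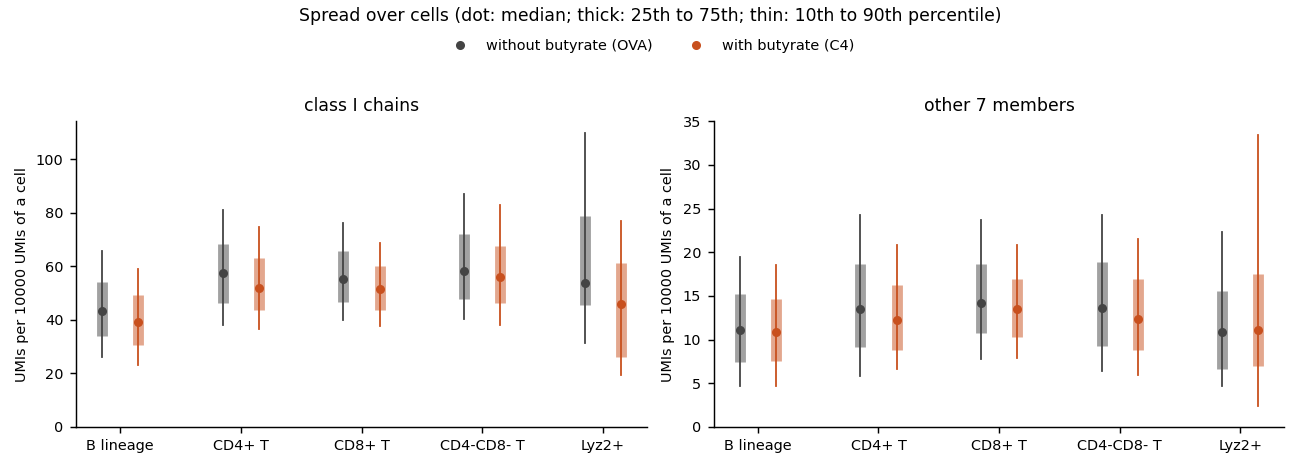
The vertical axis gives the UMIs of the 3 class I chains (left) and of the other 7 genes (right) per 10000 UMIs of a cell, by lineage and library, with a dot at the median, a thick bar from the 25th to the 75th and a thin bar from the 10th to the 90th percentile over cells. In the left panel the whole bar sits slightly lower with butyrate in the B lineage and the T cell lineages, as at the B lineage median with 43.4 and 39.2. Within each library the cells spread far more widely than the libraries differ.

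Transport and loading genes did not all go the same way across the lineages. Tap1, the first subunit of the peptide transporter, stood at 96.4 and 89.8 CPM in the B lineage (−0.10, −0.19 to −0.01). Its ratios were −0.12, −0.09 and −0.18 in the CD4+, CD8+ and CD4-CD8- T cells, the interval lying below 0 only in the B lineage and the last. Tap2, the second subunit, was alone among the 10 genes in having an interval above 0 in the B lineage. It stood there at 68.1 CPM without and 73.4 CPM with butyrate, a log2 ratio of 0.11 (0.0033 to 0.21). In CD4+ T cells Tap2 went the other way, at 119 and 106 CPM (−0.16, −0.31 to −0.02). In CD8+ T cells, at 98.0 and 97.1 CPM, and in CD4-CD8- T cells, at 116 and 113 CPM, its interval spanned 0. Tapbp, the loading chaperone, was level in the B lineage (118 and 117 CPM, −0.01, −0.09 to 0.07). In the CD4+, CD8+ and CD4-CD8- T cells it stood at 130 and 115, 133 and 117, and 129 and 114 CPM, with ratios of −0.17, −0.18 and −0.18 whose intervals lay below 0.

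Of the inducible proteasome subunits, Psmb9 was lower with butyrate in each of the 4 lineages, with the lowest ratio in CD4+ T cells. There it stood at 244 CPM without and 203 CPM with butyrate, a log2 ratio of −0.27 (−0.37 to −0.16). It stood at 191 and 174 CPM in the B lineage (−0.14), 217 and 194 CPM in CD8+ T cells (−0.16) and 210 and 186 CPM in CD4-CD8- T cells (−0.18). Psmb8 had 570 and 551 CPM in the B lineage (−0.05), 701 and 638 CPM in CD4+ T cells (−0.13), 699 and 663 CPM in CD8+ T cells (−0.08) and 686 and 611 CPM in CD4-CD8- T cells (−0.17), each with an interval below 0. Psmb10 was level in the B lineage, at 123 and 124 CPM (0.01, −0.07 to 0.09). It stood at 165 and 144 CPM in CD4+ T cells (−0.20, −0.33 to −0.07), 198 and 183 CPM in CD8+ T cells (−0.12, −0.20 to −0.04) and 179 and 165 CPM in CD4-CD8- T cells (−0.12, −0.25 to 0.01).

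Each inducible subunit takes the place of 1 constitutive subunit, so the share of the inducible one in the UMIs of the pair was compared as well. For Psmb8 and Psmb5 it was 80.2% (79.5 to 80.8) without and 79.8% (79.2 to 80.5) with butyrate in the B lineage. The intervals of the libraries overlapped in the T cell lineages too, where all values lay between 80.7% and 83.1%. For Psmb9 and Psmb6 the share in the B lineage was 57.5% (56.4 to 58.7) and 54.9% (53.7 to 56.1), without overlap, and in CD4+ T cells 61.3% (59.4 to 63.2) and 58.7% (56.6 to 60.7), with overlap. Among the B and T cell lineages the widest gap was that of Psmb10 and Psmb7 in CD4+ T cells, 67.3% (65.0 to 69.6) without and 60.9% (58.4 to 63.3) with butyrate. Both subunits moved in that share, Psmb7 standing at 80.2 and 92.4 CPM there (0.20, 0.03 to 0.37). This pair had 61.5% and 60.7% in the B lineage, 74.7% and 73.0% in CD8+ T cells and 72.3% and 68.5% in CD4-CD8- T cells. Of the 12 pairs of libraries in these lineages, the intervals were apart in 2, the Psmb9 share in the B lineage and the Psmb10 share in CD4+ T cells. The same count over other pairs of genes was not made, so these 2 have no background beside them.

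**Figure D3:**
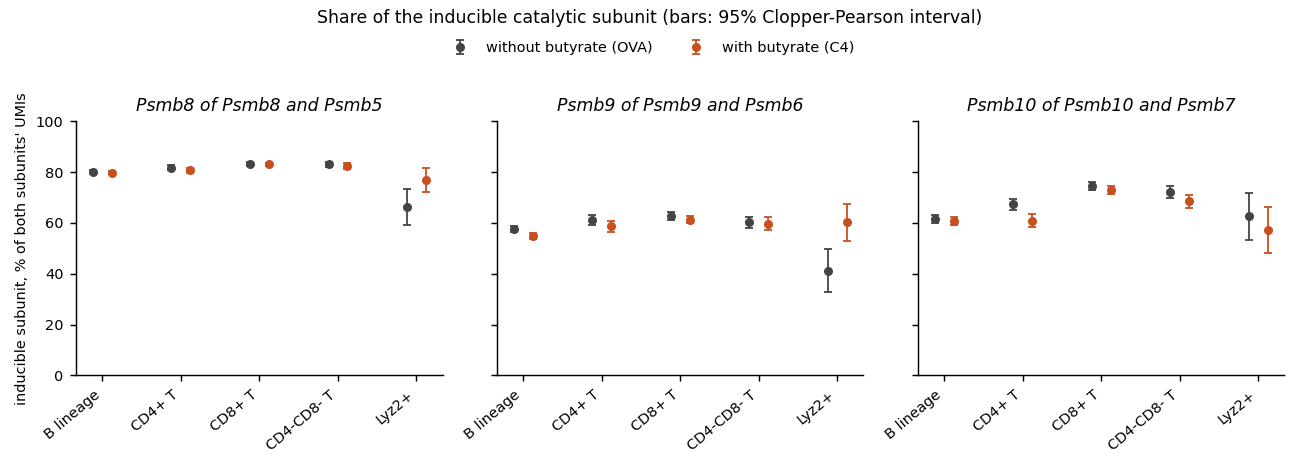
The vertical axis gives the UMIs of an inducible catalytic subunit as a percent of those of the inducible and the constitutive subunit together, by lineage and library, with 95% Clopper-Pearson intervals. Points of the 2 libraries nearly coincide for Psmb8 in the B and T cell lineages, Psmb10 is separated in CD4+ T cells (67.3% and 60.9%), and the 37 and 32 Lyz2+ cells have wide intervals.

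Nlrc5, the transactivator, was sparsely counted, with 159 to 506 UMIs per library in the B and T cell lineages. It was at 42.0 CPM (38.5 to 45.9) without and 34.9 CPM (31.8 to 38.1) with butyrate in CD8+ T cells, a log2 ratio of −0.27 (−0.45 to −0.09), the lowest of the 10 genes there. In the B lineage (12.4 and 11.4 CPM, −0.11), CD4+ T cells (26.8 and 28.4 CPM, 0.08) and CD4-CD8- T cells (32.8 and 30.5 CPM, −0.11) its interval spanned 0. With each cell thinned to 2000 UMIs, the ratio in CD4+ T cells changed sign to −0.43. At that depth an Nlrc5 UMI was found in 8.77% (7.44 to 10.3) of CD8+ T cells without and 6.80% (5.64 to 8.13) with butyrate, and in 2.44% and 2.49% of B lineage cells, the lowest share among the 4 lineages. Another draw of the thinning gave 8.09% and 6.93% of CD8+ T cells and 2.77% and 2.22% of B lineage cells, so no order of the libraries was read in the B lineage. Without thinning it was found in 25.8% and 24.4% of CD8+ T cells and 6.15% and 5.65% of B lineage cells.

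Between the B lineage and CD8+ T cells, Nlrc5 differed more than any of the other 9 genes. Among the 4 lineages it was lowest in the B lineage and highest in CD8+ T cells in both libraries. The log2 ratio of its CPM in the B lineage over CD8+ T cells was −1.77 (−1.99 to −1.55) without and −1.61 (−1.84 to −1.38) with butyrate. Without butyrate the order was CD8+, CD4-CD8-, CD4+ T cells and B lineage, the intervals of CD4-CD8- and CD4+ T cells overlapping, and with butyrate those of CD8+ and CD4-CD8- T cells overlapped too. Of the 10 genes, 9 were lowest in the B lineage among the 4 lineages in both libraries, and Tapbp was so only without butyrate. The share of all genes lowest in the B lineage was not counted. For Tap1 and Psmb9 with butyrate the interval of the B lineage overlapped that of CD4-CD8- T cells. H2-K1 had log2 ratios to CD8+ T cells of −0.46 and −0.57, B2m −0.44 and −0.49, Psmb10 −0.69 and −0.55, and H2-D1 only −0.08 and −0.08. H2-K1 was highest in CD4-CD8- T cells, then CD4+ and CD8+ T cells, in both libraries, where only the intervals of CD4+ and CD8+ T cells without butyrate overlapped. Tap2 had −0.52 and −0.40, Psmb8 −0.29 and −0.27, and Psmb9 −0.18 and −0.16. Tap1 had −0.14 (−0.25 to −0.04) and −0.15 (−0.25 to −0.05). Tapbp had −0.18 and −0.0043, the last with an interval that spanned 0. Ribosomal, mitochondrial and immunoglobulin genes took different parts of the UMIs, leaving 57.8% in the B lineage and 51.7% in CD8+ T cells without butyrate. When only the remaining UMIs were used for scaling, each of the 10 genes was still lower in the B lineage in both libraries, with log2 ratios from −0.22 for Tapbp with butyrate to −1.93 for Nlrc5 without.

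**Figure D4:**
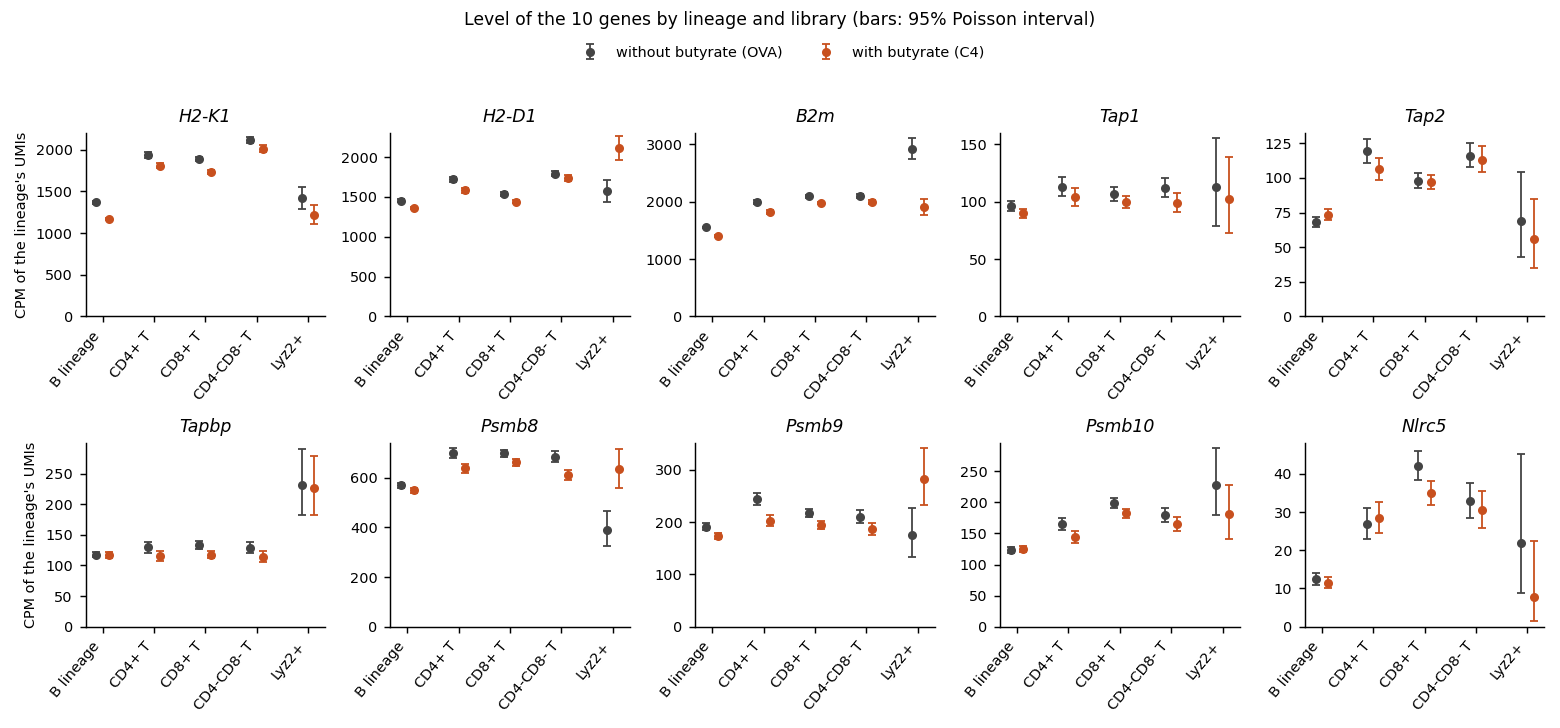
Each panel plots, for 1 of the 10 genes, CPM of the summed UMIs of a lineage (vertical axis, from 0) by lineage and library, with 95% Poisson intervals. The B lineage points sit lowest among the B and T cell lineages for H2-K1, H2-D1, B2m, Tap1, Tap2, Psmb8, Psmb9, Psmb10 and Nlrc5, and Nlrc5 peaks in CD8+ T cells at 42.0 and 34.9 CPM.

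Over the 10 sums of 5 lineages in 2 libraries, and among 743 genes with at least 50 UMIs in each sum, the genes most like H2-K1 by Pearson correlation of log2(CPM + 1) were Uqcrh (0.95), Ptpn18 (0.95) and Nsa2 (0.93). Those most like Nlrc5 were Snrpd3 (0.95), Nsa2 (0.94) and Ptprc (0.88). The sums of a library share its depth and preparation and 4 of the 5 lineages are lymphocytes, so these correlations are given as a description.

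The ratios differed from those of other interferon-induced genes in size. A list of 18 interferon-response genes without any of the 10 (such as Ifit1, Isg15, Irf7 and Mx1) had median log2 ratios of −0.74 in the B lineage, −1.06 in CD4+ T cells, −0.85 in CD8+ T cells and −1.16 in CD4-CD8- T cells. In that order 18 of 18, 17 of 17, 16 of 18 and 18 of 18 tested genes were at least 20% lower. A large part of that list's UMIs came from 1 gene, Ifi27l2a. Without butyrate it held 874 of the list's 1430 CPM in the B lineage and 1790 of 2889 CPM in CD4+ T cells. In CD8+ T cells it held 841 of 2028 CPM. Cells were thinned to 2000 UMIs and grouped by their summed UMIs of the whole list, in which Ifi27l2a thus weighs heavily. Cells with more than 5 such UMIs made up 14.6% of B lineage cells without and 6.83% with butyrate, 34.5% and 12.8% of CD4+ T cells, 25.6% and 9.05% of CD8+ T cells, and 32.2% and 11.5% of CD4-CD8- T cells.

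Class I presentation genes were mostly higher in cells with more interferon-response UMIs, in both libraries. In CD4+ T cells without butyrate the 7 genes other than the chains rose from 2.09 UMIs per cell (1.84 to 2.37) at 0 interferon-response UMIs to 4.37 (4.05 to 4.71) at over 10, and the 3 chains from 10.6 to 13.9. With butyrate these 7 genes went from 2.28 to 3.93. In the B lineage without butyrate the chains rose from 8.40 to 11.4 UMIs per cell and the other 7 genes from 2.16 to 3.47. Cells with over 5 interferon-response UMIs had more than cells with 0 in all 8 combinations of lineage and library for H2-K1, H2-D1, B2m, Tap1, Tapbp, Psmb8, Psmb9 and Psmb10, in 7 for Nlrc5 and in 6 for Tap2. The interval lay above 0 in 8 for H2-K1 and B2m, 7 for Psmb9, 6 for Tapbp and Psmb8 and 5 for H2-D1. It did so in only 4 for Psmb10, 3 for Tap1 and Nlrc5 and 1 for Tap2. The same shares over all genes were not counted. Tapbp had a median log2 ratio over the 8 combinations of 0.996, Psmb9 of 0.57, Tap1 of 0.55, B2m of 0.35 and H2-K1 of 0.29. These groups are ranges of a measured score and not cell types.

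**Figure D5:**
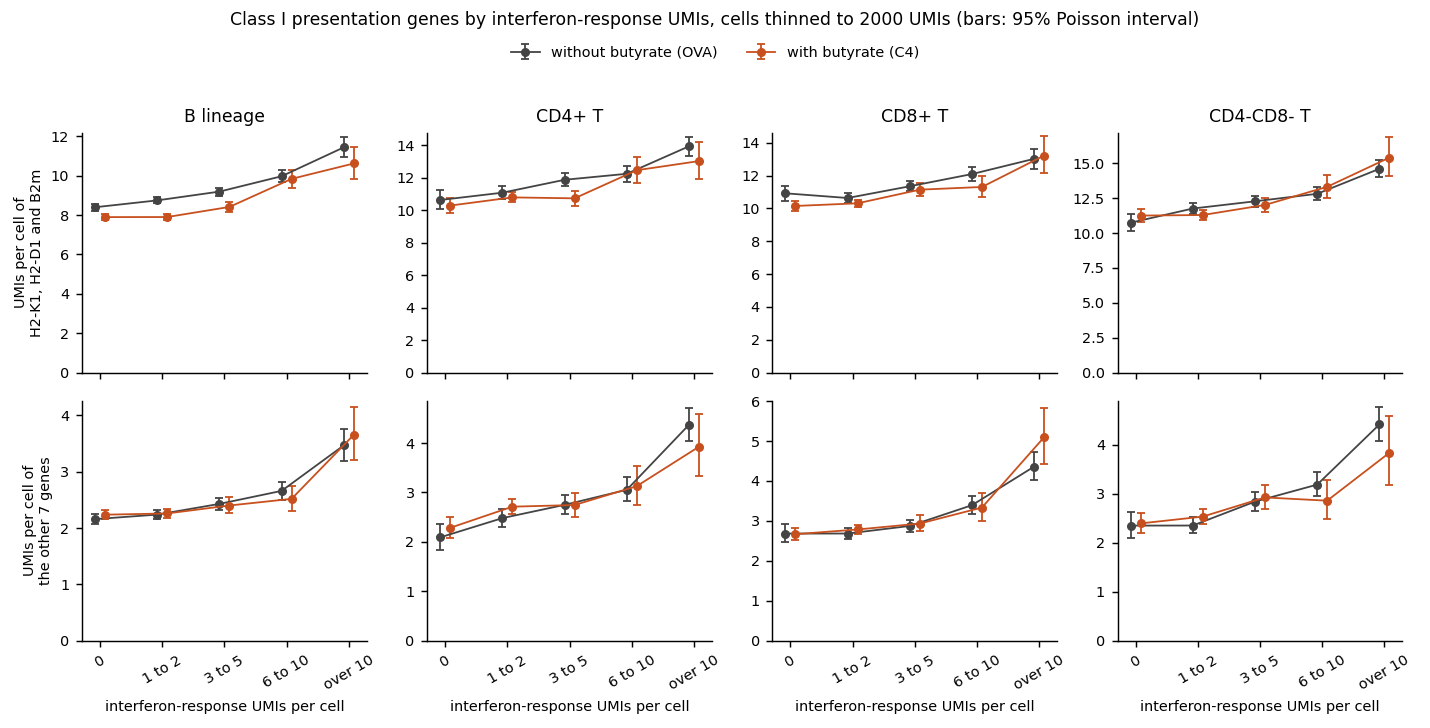
The vertical axes give mean UMIs per cell of the class I chains (upper panels) and of the other 7 genes (lower panels), in cells thinned to 2000 UMIs and grouped along the horizontal axis by their UMIs of 18 interferon-response genes, with 95% Poisson intervals. Values are higher at over 10 than at 0 in both libraries, as for the other 7 genes in CD4+ T cells without butyrate with 4.37 and 2.09. Not every step rises, the chains in CD8+ T cells without butyrate going from 10.9 at 0 to 10.6 at 1 to 2. The intervals of the libraries overlap in all 20 groups for the other 7 genes. For the chains they are apart in 5 of 20, namely B lineage cells with 0, 1 to 2 and 3 to 5, CD4+ T cells with 3 to 5 and CD8+ T cells with 0. Intervals narrow relative to the level as UMIs rise, and the chains have more UMIs than the other 7 genes. The same share over all genes was not counted.

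Among cells with 0 interferon-response UMIs, the median log2 ratio of the 10 genes with over without butyrate was −0.00038 in the B lineage, −0.03 in CD4+ T cells, −0.07 in CD8+ T cells and 0.05 in CD4-CD8- T cells. Among cells with 1 to 2 it was −0.09, 0.08, 0.03 and −0.01, among cells with 3 to 5 −0.07, −0.04, −0.02 and 0.03, and among cells with over 5 −0.06, −0.05, 0.07 and −0.14. The chains were lower with butyrate in B lineage cells with 0 (8.40 and 7.90 UMIs per cell), with 1 to 2 (8.75 and 7.90) and with 3 to 5 (9.20 and 8.42). So they were in CD4+ T cells with 3 to 5 (11.9 and 10.7) and in CD8+ T cells with 0 (10.9 and 10.1), the intervals being apart in each. The share of all genes with intervals apart in such groups was not counted. H2-K1 still had an interval below 0 among cells with 0 in the B lineage (−0.20, −0.27 to −0.13) and in CD8+ T cells (−0.22, −0.34 to −0.09). In the B lineage its interval was also below 0 at 1 to 2 (−0.20) and 3 to 5 (−0.21), but not at over 5 (−0.09, −0.21 to 0.03). In CD8+ T cells it spanned 0 at 1 to 2 and 3 to 5, and in CD4-CD8- T cells in every group. The interval lay above 0 for Tapbp in B lineage cells with over 5 (0.48, 0.14 to 0.81). It also did for Tap2 (0.65) and Tapbp (0.53) in CD4-CD8- T cells with 1 to 2. When the groups of cells with butyrate were weighted to the spread of interferon-response UMIs without butyrate, the ratio of the chains went from −0.15 to −0.11 in the B lineage, from −0.12 to −0.06 in CD4+ T cells, from −0.10 to −0.05 in CD8+ T cells and from −0.07 to 0.0056 in CD4-CD8- T cells. Counting standard errors were 0.012 to 0.022 after weighting. That of the other 7 genes went from −0.03 to 0.0087, from −0.10 to 0.02, from −0.06 to 0.05 and from −0.14 to −0.03, with counting standard errors of 0.023 to 0.045. The ratio of the chains thus came closer to 0 in each of the 4 lineages, least so in the B lineage, and that of the other 7 genes ended between −0.03 and 0.05. Whether interferon signalling set any of these levels was not tested.

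The wider class I pathway was described by 49 further genes, of which 48 were in the files. Of those tested, 3 of 46 were at least 20% lower and 0 at least 25% higher in the B lineage, 6 and 1 of 45 in CD4+ T cells, 3 and 1 of 45 in CD8+ T cells and 3 and 1 of 45 in CD4-CD8- T cells. The lower shares of all genes tested were 7.17%, 8.62%, 7.23% and 8.02%, so the lower counts in the B lineage, CD8+ and CD4-CD8- T cells were near that background. The median log2 ratios were −0.0045, −0.11, −0.05 and −0.08. The lower ones included nonclassical class I genes. H2-Q7, a nonclassical heavy chain, stood at 351 CPM without and 245 CPM with butyrate in the B lineage (−0.52, −0.57 to −0.47). In the CD4+, CD8+ and CD4-CD8- T cells it stood at 589 and 546, 785 and 728, and 724 and 638 CPM, with ratios of −0.11, −0.11 and −0.18. H2-T24 was at least 20% lower in all 4 lineages, with ratios from −0.39 to −0.82 at 13.4 CPM or less. Other class I-like genes lay on the other side, Fcgrt at 21.2 and 31.2 CPM in CD8+ T cells (0.56, 0.33 to 0.79) and Mr1 at 4.26 and 5.61 CPM in CD4+ T cells (0.40, −0.35 to 1.16). Irf1, a transcription factor that acts on class I promoters, was at 98.6 and 73.4 CPM in CD4+ T cells (−0.43, −0.60 to −0.25). Constitutive proteasome subunits, Psmb7 among them, had median ratios over 10 genes of 0.0096 in the B lineage, −0.02 in CD4+ T cells, 0.0030 in CD8+ T cells and −0.04 in CD4-CD8- T cells. The genes of MHC class II, which presents peptides taken up from outside to CD4+ T cells, lay on the other side in the B lineage, where all 9 had intervals above 0 and a median of 0.22, although none was 25% higher. The share of all genes with such an interval was not counted. In the CD4+, CD8+ and CD4-CD8- T cells the class II medians were −0.26, −0.37 and −0.28. There 4 of 8, 5 of 9 and 4 of 8 tested genes were at least 20% lower. Their sum without butyrate was 392 CPM in CD4+ T cells, against 29211 CPM in the B lineage.

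Among the finer populations given here the lowest median log2 ratio of the 10 genes, −0.28, was that of Foxp3+ CD4+ T cells, Foxp3 being the transcription factor of regulatory T cells. In these 95 and 85 cells Psmb9 was at 326 and 210 CPM (−0.64, −0.90 to −0.38), Psmb10 at 205 and 152 CPM (−0.43) and Tap1 at 146 and 111 CPM (−0.40), and 9 of the 10 genes were below 0. Nlrc5, with 19 and 33 UMIs, was at 0.85 (−0.0060 to 1.75). The medians were −0.20 in 24 and 23 Cxcr5+ Pdcd1+ CD4+ T cells, −0.07 in Il2rb+ and −0.14 in Il2rb- CD8+ T cells, −0.15 in cycling (Mki67+) T cells and −0.05 in cycling B lineage cells. Among the 100 and 81 Trdc+ CD4-CD8- T cells it was −0.03, with 6 of 10 genes below 0, and H2-K1 was at 2231 and 2291 CPM (0.04, −0.08 to 0.16). Medians and shares below 0 over all genes were not counted in these populations, so a shift of all genes cannot be told apart. Differences between these populations were not tested.

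The Lyz2+ cells departed from the lymphocytes, but they were few, and the largest cell of each library held 8.60% and 12.2% of their UMIs. Of the 8 genes with at least 50 UMIs there, 2 were at least 20% lower with butyrate, against 31.7% of all 2083 genes tested, and 3 were at least 25% higher, against 19.7%. B2m was at 2919 and 1904 CPM (−0.62, −0.76 to −0.48) and Psmb10 at 228 and 181 CPM (−0.34, −0.83 to 0.16). H2-D1 was at 1571 and 2111 CPM (0.43, 0.26 to 0.59), Psmb8 at 391 and 635 CPM (0.70, 0.38 to 1.02) and Psmb9 at 175 and 283 CPM (0.69, 0.22 to 1.18). The inducible share was 66.5% (59.3 to 73.2) and 77.1% (72.1 to 81.6) for Psmb8 and 41.2% (32.8 to 49.9) and 60.3% (52.9 to 67.4) for Psmb9. H2-K1 (1421 and 1216 CPM, −0.22), Tap1 (−0.14) and Tapbp (−0.03) passed neither limit. Tap2, with 22 and 22 UMIs, and Nlrc5, with 7 and 3 UMIs, were too sparse to be tested. H2-D1 changed sign to −0.092 when 1 UMI sufficed as a lineage marker and to −0.052 when each cell had equal weight, and Psmb9 to −0.041 when cells were thinned. Markers of myeloid cells and neutrophils also differed between these sums, as given above. So did the dendritic cell genes Flt3 (0 and 58.6 CPM), Xcr1 (0 and 33.1 CPM) and Itgax (135 and 66.3 CPM). The summed class II genes stood at 7920 and 15508 CPM and the summed T cell markers at 34.4 and 99.4 CPM. The part of these differences in the ratios was not tested.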

How the data were processed

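Droplet libraries (10x Genomics 3′ v.3) were made from pooled mediastinal lymph nodes, 1 per condition. The authors deposited raw UMI counts per gene and cell, without normalization, and the submitters' processing notes name Cell Ranger 6.0.1 and mm10. Here, cells above 10% of UMIs from mitochondria or below 200 detected genes (186 without and 327 with butyrate) and then the highest Scrublet scores at 0.8% per 1000 cells (721 and 592 cells) were removed.

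B lineage cells had at least 2 Cd79a UMIs and none of Cd3e, Cd4, Cd8a and Lyz2. T cells had at least 1 Cd3e UMI and at most 1 of Cd79a and of Lyz2. Lyz2+ cells had at least 2 Lyz2 UMIs, none of Cd3e and at most 1 of Cd79a. UMIs were summed per lineage and library and given as CPM of that sum. Shares have Clopper-Pearson, sums exact Poisson and ratios exact conditional binomial intervals. A gene was called when at least 20% lower or 25% higher with butyrate, with at least 50 UMIs over both sums. There was no test, since each condition has 1 library. Thinning to 2000 UMIs per cell left out shallower cells, 39 and 18 in the B lineage and 12 or fewer per library in each T cell lineage.

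The 10 genes, the gene lists and the finer populations were chosen with earlier results of these data known, and the IRF and κB motifs after the promoters were read. All 10 genes are named. Some marker and pathway genes and 1 finer population are not reported here. Of the 49 pathway genes, values are given for some of the 5 with the largest ratio in each lineage, and 3 like genes for H2-K1 and Nlrc5. Gene positions are from GENCODE M21 (GRCm38), which holds 31011 of the 31053 identifiers, and promoters from RefSeq. The ratio step was checked on simulated counts that held counting error alone and larger planted changes than those of the 10 genes. That check does not cover the spread between cells or mice. The tools were scanpy 1.11.5 with scipy 1.17.1, numpy 2.4.6 and pandas 2.3.3 under Python 3.11.15, and matplotlib 3.10.9 for the plots.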

Additional observations from a re-analysis of the deposited data

Results flagged for a closer look

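Tap2 had a log2 ratio with over without butyrate of 0.11 in the B lineage, with an interval barely above 0 (0.0033 to 0.21). The median over all genes tested there was 0.05. With thinned cells the Tap2 ratio in the B lineage was 0.04 with a counting standard error of 0.09, so its direction was not settled. In CD4+ T cells the Tap2 ratio was −0.16, with an interval below 0, and −0.23 with a counting standard error of 0.14 when thinned. In Lyz2+ cells H2-D1 (0.43), Psmb8 (0.70) and Psmb9 (0.69) had intervals above 0, whereas all 3 had intervals below 0 in the B lineage and the 3 T cell lineages. These opposite directions come from 1 library per condition, and the differences between lineages were not tested.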

How the results depend on the processing

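The alternatives were no doublet removal, at most 5% mitochondrial UMIs, at least 500 genes, lineage markers at 1 UMI, scaling by the median ratio over genes, scaling without ribosomal, mitochondrial and immunoglobulin genes, a pseudocount of 10 CPM, thinning, equal weight per cell and a fold of 1.5. Chosen after the data were seen were leaving out shared barcodes, B lineage cells with at least 2 Jchain UMIs, the largest Lyz2+ cell of each library, and Lyz2+ cells with S100a8 or S100a9. Over these, the median log2 ratio of the 10 genes ranged from −0.15 to −0.07 in the B lineage, −0.16 to −0.11 in CD4+ T cells, −0.12 to −0.09 in CD8+ T cells, −0.14 to −0.09 in CD4-CD8- T cells and −0.28 to 0.02 in Lyz2+ cells. In the B lineage it was −0.15 with scaling by the median ratio over genes. The count of genes called lower became 1, Nlrc5, with thinning in each of the CD4+, CD8+ and CD4-CD8- T cells, and 1 with equal weight per cell in CD8+ T cells. In Lyz2+ cells it was 1 in place of 2 at most 5% mitochondrial UMIs, with either other scaling, with a pseudocount of 10 CPM and at 1.5-fold, and 3 with thinning. There H2-D1 changed sign to −0.092 with markers at 1 UMI and to −0.052 with equal weight per cell, Psmb9 changed sign to −0.041 with thinning, and the Psmb8 share with butyrate was 82.4% with markers at 1 UMI. The causes were not tested.

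Of 529 ratios of single genes under an alternative, 501 moved by less than their counting interval, and 28 had the other sign, in Nlrc5, Psmb10, Psmb8 and Tapbp (B lineage), Nlrc5 and Tap1 (CD4+ T cells), Tap1 and Tap2 (CD8+ T cells), Tap1 (CD4-CD8- T cells) and H2-D1, Psmb9, Tap1 and Tapbp (Lyz2+ cells). With at least 500 UMIs per gene, 2.42% of genes were called lower in the B lineage in place of 7.17%, 3.48% in CD4+, 2.78% in CD8+ and 3.41% in CD4-CD8- T cells. Nlrc5 and the Lyz2+ cells were limited by depth. No paired analysis was possible because each condition has 1 library.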
